A study of Mus musculus with 4 samples.

Results

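Kinase genes of 4 signalling systems were examined in male mice at 12 months of age, in the left hippocampus: the MAP kinase cascades, protein kinase A with AMP-activated kinase, the protein kinase C family with the calmodulin and cGMP kinases, and the phosphoinositide 3-kinase pathway with AKT and the S6 kinases. Members are all genes whose platform annotation gives a probe set a single symbol starting with Mapk, Map2k, Map3k, Map4k, Prka, Prkc, Prkg, Camk (without Camk2a and Camk2b), Rps6k, Pik3, or Akt and a digit. The rule uses names only and no measured value. It found 63 of 8251 named genes, on 90 probe sets, the groups of short probes that stand for a transcript on an Affymetrix array. The study has 4 arrays of total RNA. Control arrays 1 and 2 came from nontransgenic mice of the C57B6/SJL background. APPSw arrays 1 and 2 came from Tg2576 mice, which carry the APPSw transgene, amyloid precursor protein with its Swedish mutation. The labels give no strain background for them. As background, the Tg2576 transgene is a human coding sequence driven by a hamster prion protein promoter, active in most brain neurons. The labels do not say that the arrays of a group came from different animals, and p-values then reflect only the variation among these samples, possibly technical.

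MAP kinase cascades pass a phosphate down a chain, from MAP4K and MAP3K through MAP2K to the MAP kinases themselves (ERK, JNK and p38 types), which then act on transcription factors and on further kinases. Protein kinase A answers to cyclic AMP, protein kinase C to calcium and diacylglycerol, and calmodulin-dependent kinases to calcium. PI3K makes a membrane lipid that recruits AKT, which feeds growth signalling through mTOR and the S6 kinases. In the hippocampus these enzymes are known for their part in synaptic plasticity and memory, and JNK and p38 for responses to cell stress.

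Differences are of mean log2 signal, APPSw less control, with the moderated SE from limma. Signals are linear values deposited by the authors, computed with MAS 5.0 to a common target of 2500. A signal depends on the probes as well as on the transcript, so levels of different probe sets are not read as relative amounts of their transcripts. Levels across probe sets serve the signal filter, the sums over marker lists and the ordering of probe sets by brightness. Of the 90 probe sets, 62 (50 genes) had a mean log2 signal above the 40th percentile of all probe sets, a geometric mean signal of 565, and were tested. The other 28 were dimmer, and 13 genes had no brighter probe set: Camk2d, Map3k1, Map3k2, Map3k6, Map3k12, Mapk7, Mapk13, Mapkbp1, Pik3c2a, Pik3c2g, Prkch, Prkg2 and Rps6ka3.

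The labelled tissue was checked against marker lists. Of 9 markers of hippocampal principal neurons on the array, 8 lay above the filter, with Prox1 below it. The summed signal was 63301 and 59473 in the control pair and 50507 and 39952 in the APPSw pair, with 8 of 9 below 0 by log2 difference. The 8 oligodendrocyte markers were also all below 0. Choroid plexus markers, of which 6 of 10 were on the array, summed to 23367 and 14412 for the controls, 133476 for APPSw 1 and 17026 for APPSw 2, so APPSw 1 stands apart in these. The 6 meningeal markers were all above 0, with sums of 17557 and 22605 for the controls and 28520.4 and 25509 for the APPSw mice. Of 5 neocortex markers 4 were above 0, and their sums were 14663 and 14532 for the controls and 19841 and 22567 for the APPSw mice, with no overlap. Median log2 differences were smaller in the other lists. They were 0.039 for interneurons, 0.062 for microglia, -0.055 for endothelium and -0.17 for astrocytes. For striatum the median was 0.059, and for thalamus and habenula 0.12. The part of these lists in the kinase values was not tested. Fewer cells of a type and less RNA per cell cannot be told apart in bulk tissue. Median signals over all probe sets lay between 926 and 1033 on the 4 arrays.

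No kinase gene passed the test. With limma and Benjamini-Hochberg adjustment over all 7453 probe sets, 0 of 62 member probe sets passed an adjusted p of 0.05, against 0% of all probe sets, with 0.599 as the lowest adjusted value. An unadjusted p under 0.05 was found for 4 of 62 member probe sets (6.45%), where 8.05% of all probe sets had such a p. Of the 4, 1 was higher in APPSw mice (4.72% of all probe sets) and 3 were lower (3.33% of all). The count of 4 became 2 without control 2 (3.23%, against 5.39% of all probe sets) and 8 without APPSw 1 (12.9%, against 10%), and each of these counts held 1 of the 4. It also became 7 with a pseudocount of 250 (11.3%, against 8.22%), 8 of 41 with a filter at the 60th percentile (19.5%, against 9.9% of all probe sets) and 13 of 62 with an intensity trend in the prior variance (21%, against 8.83%). The number of arrays limits the precision. With 2 arrays against 2, the smallest two-sided p of an exact permutation test is 0.333.

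The median log2 difference of the 62 was -0.081, against 0.018 over all 7453 probe sets, with 42 below 0 and 20 above. Against the control mean the median was -0.057 in APPSw 1 and -0.061 in APPSw 2. Both APPSw arrays lay below both controls for 18 of the 62 (29%, against 19.0% of all probe sets). They lay above both controls for 9 (14.5%, against 22.2%), and the groups overlapped for 35. Of the 18, 13 were lower in APPSw 2 than in APPSw 1. The same share among all probe sets of that class was not computed. The median of the 18 was -0.27 in APPSw 1 and -0.51 in APPSw 2, where the class itself requires values below 0. Over the 62 the medians of the APPSw arrays were close, and the order of the arrays differed among families. In the PKC family APPSw 2 was the lower (-0.011 in APPSw 1 and -0.23 in APPSw 2). In the PI3K family APPSw 1 was (-0.19 in APPSw 1 and -0.11 in APPSw 2). The principal neuron list had the order of the 18, with a median of -0.40 in APPSw 1 and -0.73 in APPSw 2. So did the oligodendrocyte list, with -0.16 and -0.43. APPSw 2 was also the lower for choroid plexus (1.99 and -0.34), meninges (0.72 and 0.33) and striatum (0.25 and -0.11). It was the higher for microglia (-0.0084 and 0.13), endothelium (-0.041 and 0.11), thalamus and habenula (-0.19 and 0.25) and neocortex (0.18 and 0.49). Interneuron medians were nearly equal, at -0.019 and -0.023, as were astrocyte medians, at -0.191 and -0.185. No part of these lists in the kinase values was tested.

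**Figure D1:**
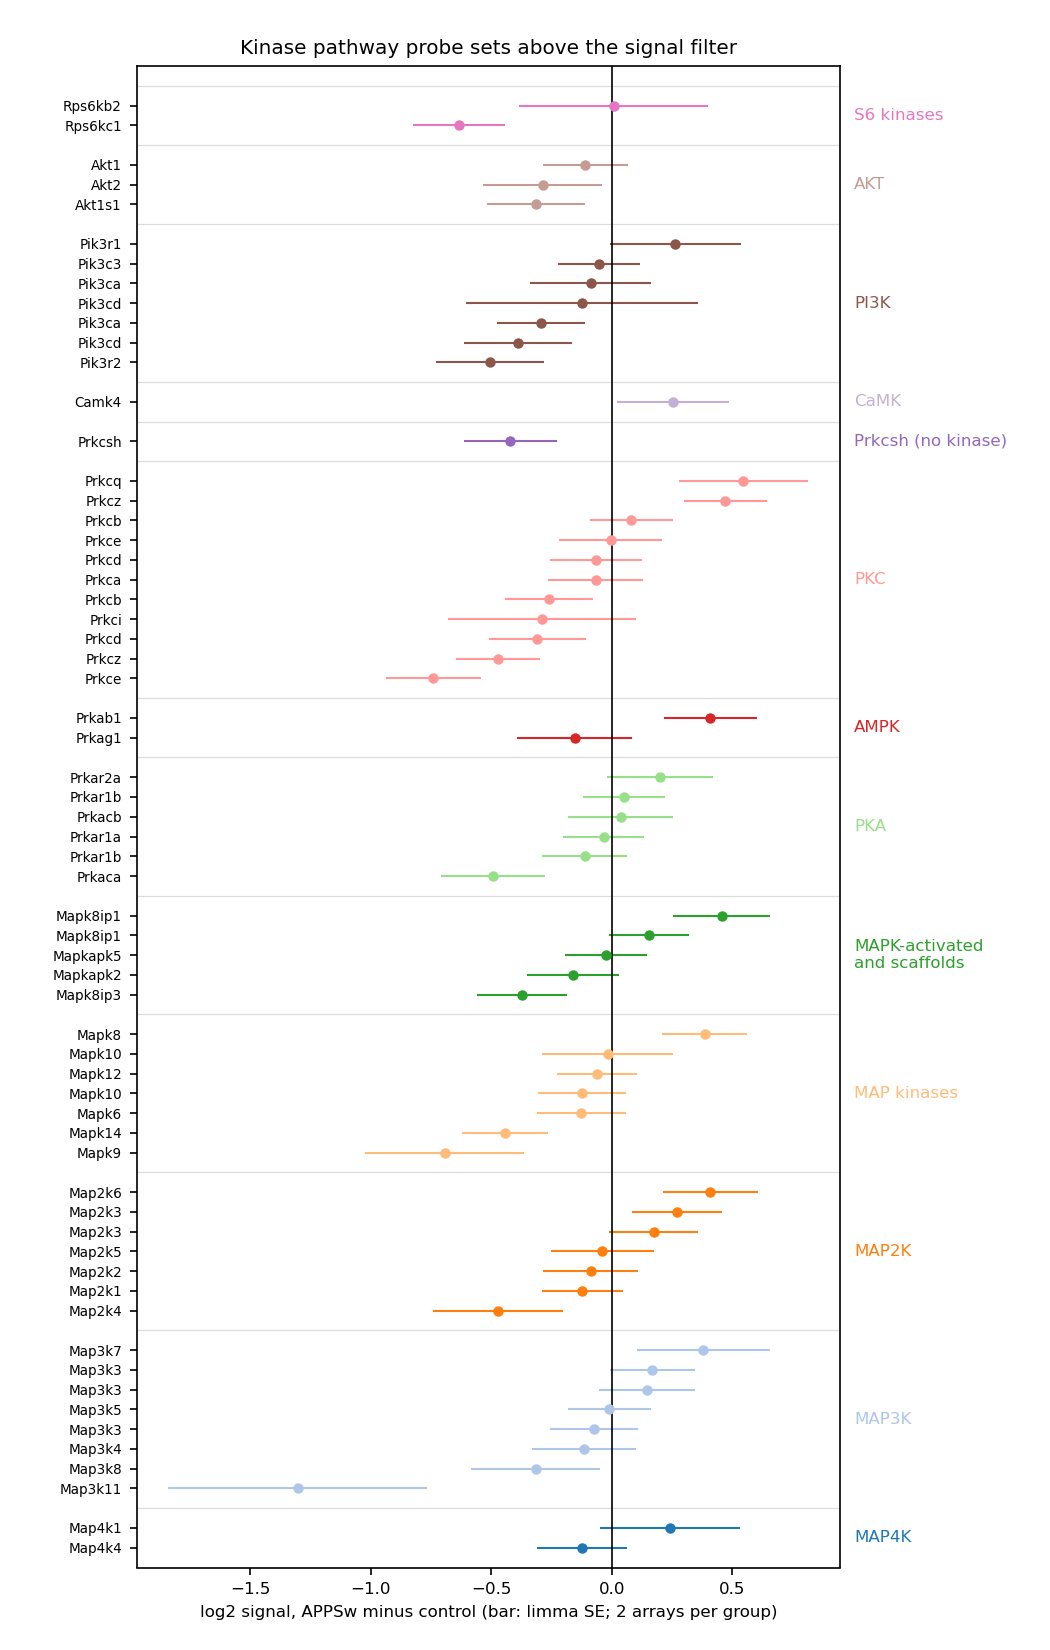
The log2 difference between APPSw and control signals for the 62 tested probe sets, 1 point each with limma's SE, grouped by family from MAP4K at the bottom to the S6 kinases at the top. Points run from -1.30 for Map3k11 to 0.55 for Prkcq, and 42 of 62 lie left of 0.

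Protein kinase C held 3 of the 4 probe sets at an unadjusted p under 0.05, on 2 genes. These were 3 of its 11 tested probe sets (27.3%, against 8.05% of all probe sets), and those of Prkcz had opposite signs. Whether the family departs from the share of all probe sets was not tested. The family has conventional members that need calcium (Prkca, Prkcb), members that need diacylglycerol only (Prkcd, Prkce, Prkch, Prkcq) and atypical members that need neither (Prkci, Prkcz). Of its 14 probe sets, 11 were tested. By log2 difference 8 were below 0 and 3 above, with a median of -0.068. That median was -0.16 with no filter, -0.23 without control 1 or without APPSw 1 and -0.011 without APPSw 2. By array, against the control mean, it was -0.011 in APPSw 1 and -0.23 in APPSw 2.

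Prkce encodes PKC epsilon, a kinase of presynaptic terminals and axons. By the dimmer of its probe sets the signals were 7959.9 and 8423 in the control pair and 4328 and 5542.5 in the APPSw pair. Both APPSw arrays lay far under both controls, which differed from each other by 1.06-fold. The means were 8191 ± 327 (SD, n = 2) for controls and 4935 ± 859 (SD, n = 2) for APPSw mice, a difference of -0.74 log2 units (SE 0.20), or 1.67-fold lower (unadjusted p = 0.0105, adjusted p = 0.599 by limma). With an array left out in turn the difference ran from -0.92 to -0.56, and the unadjusted p by limma was 0.0526 without control 2. The brighter Prkce probe set gave signals of 15791 and 14415 in the control pair and 12919 and 17504 in the APPSw pair, with the groups overlapping and a difference of -0.0048 log2 units (SE 0.21). It changed sign in several alternatives, so the 2 probe sets do not give Prkce a single value.

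Prkcz encodes PKC zeta, and brain makes from the same gene a shorter, constantly active form, PKM zeta, which starts at an internal promoter. RefSeq (GRCm38.p6) gives Prkcz 3 start sites. The 250 bases before each start and the first 10 after it are shown because the gene has several starts and its probe sets gave opposite values. Capitals mark a cyclic AMP response element (CRE, TGACGTCA) or a GC box (GGGCGG, or CCGCCC on the other strand). The sites are on the minus strand, at chr4:155361419-155361678, chr4:155345780-155346039 and chr4:155344740-155344999. The second start lies 15639 bases and the last 16679 bases downstream of the first.
Prkcz start 1: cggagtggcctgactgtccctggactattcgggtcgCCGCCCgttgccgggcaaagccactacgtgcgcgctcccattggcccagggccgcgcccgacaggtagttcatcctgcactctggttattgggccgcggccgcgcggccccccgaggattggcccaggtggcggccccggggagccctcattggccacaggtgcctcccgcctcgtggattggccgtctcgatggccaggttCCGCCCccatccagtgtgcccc
Prkcz start 2: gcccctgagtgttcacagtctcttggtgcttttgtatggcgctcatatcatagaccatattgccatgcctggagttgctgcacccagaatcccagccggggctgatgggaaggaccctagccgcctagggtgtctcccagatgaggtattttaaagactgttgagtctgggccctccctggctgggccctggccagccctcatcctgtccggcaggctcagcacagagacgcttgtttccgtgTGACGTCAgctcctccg
Prkcz start 3: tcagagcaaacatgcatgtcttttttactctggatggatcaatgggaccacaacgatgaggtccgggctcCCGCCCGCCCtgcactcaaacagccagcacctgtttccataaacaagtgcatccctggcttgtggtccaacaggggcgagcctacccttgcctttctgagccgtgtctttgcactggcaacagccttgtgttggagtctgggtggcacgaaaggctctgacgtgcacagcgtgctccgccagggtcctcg
The first and the last window hold 2 GC boxes each and no CRE (those of the last overlap), and the second holds 1 CRE, which begins 7 bases before the start, and no GC box. Over all 32851 windows of this length in the table, 1.67% hold this CRE and 33.4% a GC box. The sources used here do not say which Prkcz transcripts each probe set detects.

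By its brightest probe set Prkcz had signals of 5618 and 6263 in the control pair and 4155 and 4403 in the APPSw pair, and both APPSw arrays were lower than both controls. The means were 5940.5 ± 457 (SD, n = 2) for controls and 4279 ± 175 (SD, n = 2) for APPSw mice, a difference of -0.47 log2 units (SE 0.17) or 1.39-fold lower (unadjusted p = 0.0366, adjusted p = 0.609 by limma). By the second probe set the order was the opposite, with signals of 2078 and 2093.5 in the control pair and 3067 and 2723 in the APPSw pair. The means were 2086 ± 11 (SD, n = 2) for controls and 2895 ± 243 (SD, n = 2) for APPSw mice, a difference of 0.47 log2 units (SE 0.17) or 1.39-fold higher (unadjusted p = 0.0366, adjusted p = 0.609 by limma). The identifier of the second carries the suffix _r, which marks a probe set for which the manufacturer relaxed its rules of probe choice. The dimmest lay under the filter, with signals of 600.2 and 641 in the control pair and 291 and 883 in the APPSw pair. The mean of the 2 tested probe sets had a difference of -0.00068. Within each probe set the arrays of a group lay close together, and the groups did not overlap in either, but neither difference passed the adjusted test. By limma neither kept an unadjusted p under 0.05 with no filter (0.0751 for the brightest and 0.0749 for the second) or with the replicate block (0.0657 and 0.0688). With an array left out it was kept only by the second, without APPSw 2 (0.0405).

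The other PKC genes had smaller differences or wider spreads. Prkcb, abundant in forebrain neurons, had signals of 44504 and 42605 in the control pair and 39744 and 33298.5 in the APPSw pair by its brighter probe set, a difference of -0.26 log2 units (SE 0.18), with no overlap. The dimmer had 0.081 and overlapping groups. Prkcq, PKC theta, best known from T cells, had signals of 799.5 and 1300.2 in the control pair and 1553 and 1426 in the APPSw pair, a difference of 0.55 log2 units (SE 0.27). Both APPSw arrays were above both controls, but the controls themselves were 1.63-fold apart. A Prkcq probe set under the filter, not tested, had -0.42, with overlapping groups. Prkcd, PKC delta, had -0.31 and -0.065 by its probe sets, and only the first kept the groups apart. Prkca had -0.068 (SE 0.20) and Prkci -0.29 (SE 0.39), with overlapping groups. Thalamic markers were checked because Prkcd is strongly expressed in thalamus, and 6 of 7 lay above the filter. The summed signal of the 7 was 8252 and 10922 in the control pair and 8740 and 10593 in the APPSw pair, so the sums overlapped between groups. By log2 difference 5 of the 7 were above 0 and 2 below, with a median of 0.12. Their part in the Prkcd values was not tested. Prkcsh carries the same prefix, but encodes the beta subunit of glucosidase II, an enzyme of glycoprotein folding, and no kinase. It had signals of 9686.5 and 10057 in the control pair and 8245.5 and 6592 in the APPSw pair and a difference of -0.42 log2 units (SE 0.19).

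**Figure D2:**
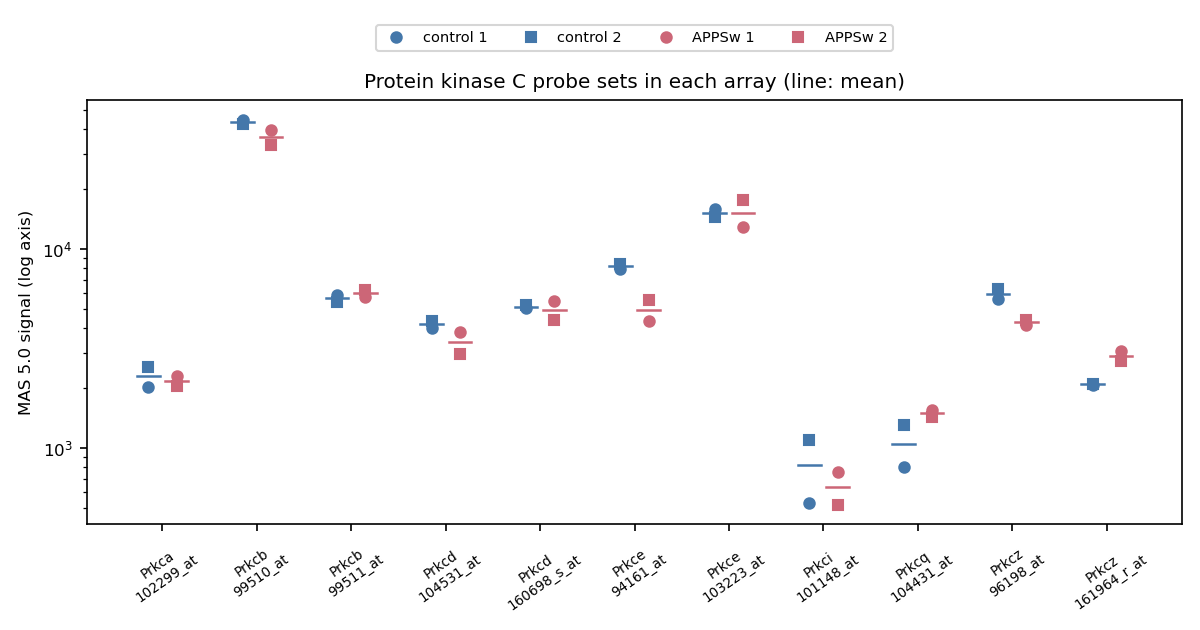
Signal on a log axis of the 11 tested protein kinase C probe sets in each array, with circles for array 1 and squares for array 2 of each group, blue for control and red for APPSw, and a line at the group mean. The dimmer Prkce and the brightest Prkcz probe set are lower in both APPSw arrays, and the other Prkcz probe set is higher in both.

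In the MAP kinase cascades, 0 of 29 tested probe sets had an unadjusted p under 0.05, against 8.05% of all probe sets. The difference between this family and the others was not tested. At the top of the chain, Map4k4, which feeds the JNK branch, had -0.12 (SE 0.19) and Map4k1, a kinase of blood cells, 0.24 (SE 0.29), both with overlapping groups. Among the 8 tested MAP3K probe sets the median was -0.043, with 3 above 0 and 5 below. The median was above 0 without control 1 (0.031) and without APPSw 1 (0.061). Map3k11, the mixed-lineage kinase MLK3, had signals of 665 and 1209.9 in the control pair and 610.1 and 217 in the APPSw pair. Both APPSw arrays were lower than both controls, with a difference of -1.30 (SE 0.54) and no pass (unadjusted p = 0.0535, adjusted p = 0.612 by limma). APPSw 2 was 2.82-fold below APPSw 1, and the difference was -0.56 without APPSw 2. Map3k3, on 3 probe sets, had 0.17, 0.14 and -0.074. Map3k7, the kinase TAK1 of cytokine receptors, had 0.38 (SE 0.28), Map3k8 -0.32 (SE 0.27), Map3k4 -0.11 (SE 0.22), and the stress kinase Map3k5 (ASK1) -0.011 (SE 0.17), all with overlapping groups.

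No MAP2K gene passed the test, and 3 of 7 tested probe sets were above 0. Map2k6 and Map2k3 activate p38 kinases. Map2k6 had signals of 579.6 and 611.5 in the control pair and 889.9 and 702 in the APPSw pair by its tested probe set, a difference of 0.41 log2 units (SE 0.20). A Map2k6 probe set under the filter had -0.081, with overlapping groups. Map2k3 had signals of 1997 and 1645 in the control pair and 2178.5 and 2192 in the APPSw pair by its dimmer tested probe set, a difference of 0.27, and 0.17 by the brighter, where the groups overlapped. The tested Map2k6 probe set and the dimmer tested Map2k3 probe set had both APPSw arrays above both controls. Map2k4, which activates JNK kinases, had signals of 4789 and 6969 in the control pair and 3535 and 4899.6 in the APPSw pair, and its difference of -0.47 (SE 0.27) was no larger than the 1.46-fold gap between the controls. Map2k1 and Map2k2, which activate ERK kinases, had -0.12 and -0.087, the former with both APPSw arrays below both controls, and Map2k5, which activates Mapk7, -0.039.

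Among the MAP kinases, the JNK genes lay on different sides of 0 by their tested probe sets. Mapk8 (JNK1) had signals of 4543 and 5129.5 in the control pair and 6065 and 6551 in the APPSw pair, with both APPSw arrays above both controls, and a difference of 0.38 log2 units (SE 0.18). Another Mapk8 probe set, under the filter and not tested, had -0.48, with overlapping groups. Mapk9 (JNK2) had signals of 2798 and 5454 in the control pair and 2421 and 2412 in the APPSw pair. Both APPSw arrays were lower, but the controls were 1.95-fold apart, and the difference of -0.69 (SE 0.33) was -0.21 without control 2. Mapk10 (JNK3), the form most restricted to nervous tissue, had signals of 17953 and 17032 in the control pair and 14664.5 and 17544 in the APPSw pair and a difference of -0.12 log2 units (SE 0.18) by its brighter probe set, and -0.018 by the dimmer, with overlapping groups. The difference between Mapk8 and Mapk9 was not tested.

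Mapk14, which encodes p38 alpha, had signals of 8461 and 7952.5 in the control pair and 6499.7 and 5602 in the APPSw pair. Both APPSw arrays were lower than both controls, whose values were 1.06-fold apart. The means were 8207 ± 360 (SD, n = 2) for controls and 6051 ± 635 (SD, n = 2) for APPSw mice, a difference of -0.44 log2 units (SE 0.18) or 1.36-fold lower (unadjusted p = 0.0504, adjusted p = 0.612 by limma). The suffix _s marks a probe set whose probes match more than 1 transcript. Mapk12, p38 gamma, had -0.063, also without overlap, and Mapk6, the atypical kinase ERK3, -0.13. The p38 substrates Mapkapk2 and Mapkapk5 had -0.16 and -0.026, with overlapping groups.

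JNK scaffolds, which hold the kinases of the JNK branch together, also lay on both sides. Mapk8ip1 (JIP1) had signals of 6919 and 9020.4 in the control pair and 11215 and 10454.5 in the APPSw pair by its brighter probe set, a difference of 0.45 log2 units (SE 0.20), and 0.15 by the dimmer. In both, the APPSw arrays were above both controls. Mapk8ip3 (JIP3), which links cargo to kinesin motors in axons, had signals of 12343 and 12616 in the control pair and 10673 and 8719 in the APPSw pair and a difference of -0.37 log2 units (SE 0.19), with APPSw 2 the lowest array.

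Protein kinase A showed its largest difference in a catalytic subunit. Prkaca, the catalytic alpha subunit, had signals of 14111 and 15872 in the control pair and 12390.2 and 9119.6 in the APPSw pair. Both APPSw arrays were lower and APPSw 2 was the lowest, a difference of -0.49 log2 units (SE 0.22) or 1.41-fold (unadjusted p = 0.0655, adjusted p = 0.612 by limma), and the difference was -0.27 without APPSw 2 and -0.71 without APPSw 1. Prkacb, the catalytic beta subunit, had signals of 13137 and 17075 in the control pair and 13906.5 and 16969 in the APPSw pair and a difference of 0.037 log2 units (SE 0.22), with full overlap. The regulatory subunits, which hold the catalytic ones inactive until cyclic AMP binds, differed little. Prkar1a had signals of 45531 and 45723.5 in the control pair and 45404 and 43698 in the APPSw pair and a difference of -0.035 log2 units (SE 0.17). Prkar1b had -0.11 and 0.051 by its probe sets, and Prkar2a 0.20. The family median was 0.00095 over 6 probe sets and lay below 0, from -0.095 to -0.012, with any array left out. Of the AMP-activated kinase, which senses low energy, the beta subunit Prkab1 had signals of 1185 and 950.5 in the control pair and 1372 and 1448 in the APPSw pair, a difference of 0.41 log2 units (SE 0.19), with no overlap, and the gamma subunit Prkag1 -0.16 (SE 0.24), with overlap.

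Camk4, a nuclear kinase that acts on the transcription factor CREB, had signals of 603 and 456 in the control pair and 714 and 547 in the APPSw pair and a difference of 0.25 log2 units (SE 0.23), with overlapping groups. It gave the only tested probe set of the calmodulin kinase members, which leave out Camk2a and Camk2b. Of the cGMP kinases, Prkg2 was under the filter.

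In the PI3K pathway 6 of 7 tested probe sets of PI3K genes and all 3 of the AKT group were below 0, with medians of -0.12 and -0.29. The PI3K median ran from -0.29 with the 60th percentile filter to -0.067 with the pseudocount, and the AKT median from -0.40 without control 1 to -0.11 without control 2. For all kept probe sets, 52.7% were above 0. Pik3r2, a regulatory subunit, had signals of 2925 and 4117 in the control pair and 2534 and 2356 in the APPSw pair, a difference of -0.51 log2 units (SE 0.22) or 1.42-fold lower, though the controls were 1.41-fold apart. Pik3r1, the other regulatory subunit gene among the members, had 0.26 (SE 0.27) and overlapping groups. The catalytic subunit genes Pik3ca and Pik3cd (the latter best known from white blood cells) had -0.29 and -0.39 by probe sets without overlap, and -0.087 and -0.12 by probe sets with overlap. Pik3c3, the lipid kinase of autophagy, had -0.055 (SE 0.17).

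Akt1 had signals of 6853 and 7307 in the control pair and 6166.5 and 6971 in the APPSw pair, a difference of -0.11, and Akt2 had 3994 and 4677.5 in the control pair and 4326 and 2902 in the APPSw pair, a difference of -0.29 (SE 0.25). For Akt2, APPSw 2 was the lowest array and APPSw 1 lay between the controls. Akt1s1, an AKT substrate that restrains mTOR complex 1, had signals of 1662 and 2192 in the control pair and 1537 and 1533 in the APPSw pair, a difference of -0.31 log2 units (SE 0.20). The groups overlapped for Akt1 and Akt2 and not for Akt1s1.

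Among S6 kinases, Rps6kc1, a relative of the ribosomal S6 kinases, had the smallest p outside protein kinase C. Its signals were 1631 and 1413 in the control pair and 898 and 1066.5 in the APPSw pair, so both APPSw arrays were lower than both controls. The means were 1522 ± 155 (SD, n = 2) for controls and 982 ± 119 (SD, n = 2) for APPSw mice, a difference of -0.63 log2 units (SE 0.19) or 1.55-fold lower (unadjusted p = 0.0174, adjusted p = 0.599 by limma), and the difference ran from -0.76 to -0.51 with an array left out in turn. By limma its unadjusted p was 0.105 without control 1 and 0.0679 without APPSw 1. Rps6kb2, an S6 kinase downstream of mTOR, had signals of 2788 and 1339.6 in the control pair and 2355 and 1601 in the APPSw pair. The controls were 2.08-fold apart and the difference of 0.0067 (SE 0.39) had no stable sign.

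**Figure D3:**
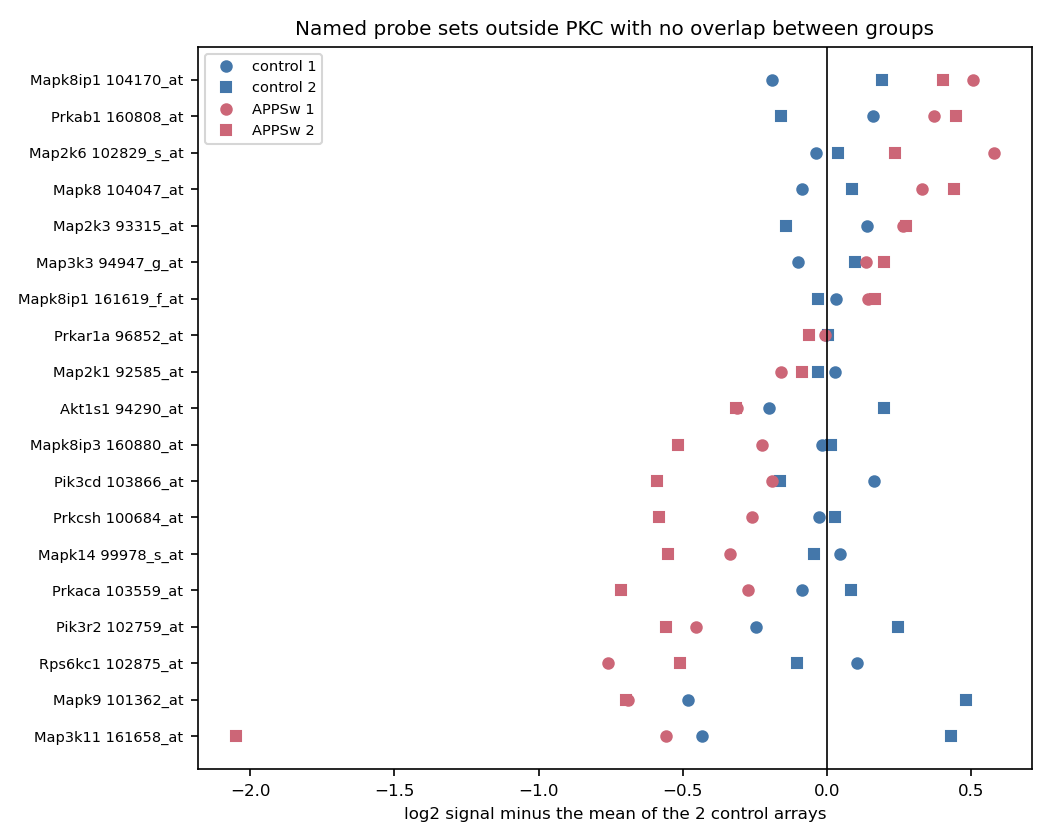
Log2 signal of each array minus the mean of the control arrays, for the named probe sets outside protein kinase C whose groups do not overlap, with circles for array 1 and squares for array 2 of each group. Among the lower ones, APPSw 2 is far below APPSw 1 for Map3k11 (by 1.49) and below it for Prkaca (by 0.44), while the controls of Mapk9 are 0.96 apart.

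Probe signal and difference went together to a small degree. Over the 62 probe sets the Spearman correlation of mean log2 signal with the log2 difference was -0.171, and over all 7453 it was -0.157. These values are across probe sets, which share arrays and scaling and are not replicates. Of the 31 members brighter than the members' median signal of 2612, 12 had both APPSw arrays below both controls (38.7%, against 24.2% of the 3522 probe sets as bright) and 2 had both above (6.45%, against 18.4%). The dimmer 31 had 6 below (19.4%, against 14.3% of the 3931 other probe sets) and 7 above (22.6%, against 25.6%). Medians were -0.12 for the brighter and -0.055 for the dimmer members, and -0.016 and 0.072 over all probe sets split at the same signal.

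**Figure D4:**
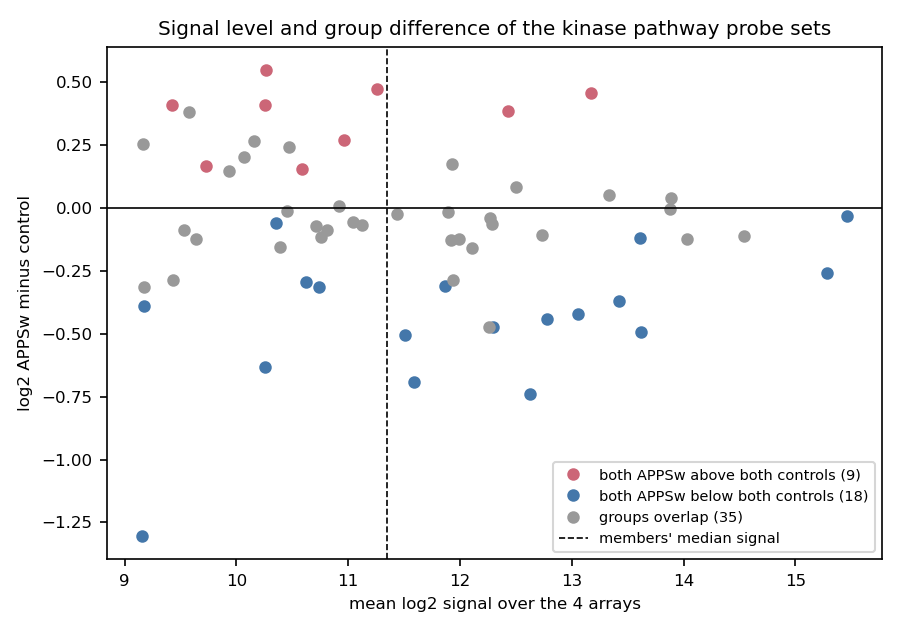
Mean log2 signal over the 4 arrays (horizontal axis) and log2 difference (vertical axis) of the 62 probe sets, coloured by whether the groups overlap. Right of the dashed line, the members' median signal, 12 of 31 points are in the class below both controls and 2 in the class above both.

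Several genes had more than 1 tested probe set, which checks how far a value belongs to the gene. For 7 of 11 such genes the probe sets agreed in sign, and for Map3k3, Prkar1b, Prkcb and Prkcz they did not. The gap between a gene's lowest and highest difference ran from 0.097 for Map2k3 to 0.94 for Prkcz, with a median of 0.24. It was over 0.5 for 2 genes, Prkcz and Prkce. These are also the PKC genes with an unadjusted p under 0.05. A wide gap needs a large difference in at least 1 probe set, which also favours a small p, so this overlap is partly built in.

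Of the 28 member probe sets under the filter, 7 differed over 2-fold between geometric means (25% of them, against 24.3% of all probe sets under the filter), and none was tested. Map3k6, a relative of ASK1, had signals of 513 and 551 in the control pair and 159 and 159.7 in the APPSw pair, a difference of -1.74 with arrays of a group within 1.07-fold. Mapk7, the kinase ERK5, had 484 and 992 in the control pair and 295 and 267 in the APPSw pair, a difference of -1.30. Map3k12, the neuronal injury kinase DLK, had 211 and 112 in the control pair and 694 and 284 in the APPSw pair, a difference of 1.53. Mapkbp1, a JNK-binding protein, had 421 and 287 in the control pair and 529 and 1354 in the APPSw pair, a difference of 1.28. The rest were a dim Map4k4 probe set (-1.55), Pik3c2g (1.12) and Rps6ka3 (1.41). The control signals of Rps6ka3 were 17.1 and 29.9, far under the filter.

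Partners of these kinases outside the name rule were read from a list of 100 symbols of Ras, Raf, phosphatase, anchoring, calmodulin, phospholipase and mTOR pathway genes. Of these, 62 genes were on the array, and 65 of their 92 probe sets were tested. With limma 0 passed the adjusted threshold, and 5 (7.69%, against 8.05% of all probe sets) had an unadjusted p under 0.05, 1 higher and 4 lower. The count was 2 without control 2 (3.08%, against 5.39% of all) and 9 without APPSw 1 (13.8%, against 10%). Akap9, which anchors protein kinase A at the centrosome and Golgi, had signals of 649 and 595 in the control pair and 1768.5 and 1083 in the APPSw pair, a difference of 1.16 log2 units (SE 0.27). Dusp6, the phosphatase that switches off ERK, had signals of 6887 and 7435 in the control pair and 4686.5 and 4581 in the APPSw pair, a difference of -0.63 log2 units (SE 0.17). Both APPSw arrays were well apart from both controls in each gene. Nrgn, a calmodulin-binding PKC substrate of principal neurons, had -0.71 (SE 0.24). Tsc2, which restrains mTOR, had -0.59 (SE 0.24) by the dimmer of its tested probe sets and -0.016 by the brighter, and Plcb1, a phospholipase upstream of PKC, had -0.56, -0.43 and 0.06 by its 3. Of the 65 tested partner probe sets, 16 lay above both controls (24.6%, against 22.2% of all probe sets) and 16 below both (24.6%, against 19.0%).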

How the data were processed

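RNA of the left hippocampus was measured on 4 Affymetrix arrays, 2 control and 2 APPSw. The deposited values are linear signal intensities computed by the authors in MAS 5.0 to a common target of 2500, per the labels. Of 12488 probe sets, 66 manufacturer's controls were left out, and 7453 of the other 12422 passed the filter at the 40th percentile of mean log2 signal. Genes were named from the platform annotation, and all 90 member gene identifiers were found in the RefSeq gene table (GRCm38.p6). Groups were tested on log2 signals by limma 3.58.1 (R 4.3.3, moderated two-sided test, 2 residual and 3.7 prior degrees of freedom), with adjustment over all 7453 probe sets. The fit was tested on simulated data. Promoter windows came from RefSeq.

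Members, lists and tests were chosen with earlier results of these data known. The text names the brightest tested probe set of each family, all with an unadjusted p under 0.05, up to 2 per family and direction without overlap, genes whose probe sets lay over 0.5 apart, dim members over 2-fold apart and up to 3 partners per direction. Other members are given by value only, except that signals are also printed for Map2k4, Prkacb, Akt2 and the dimmest Prkcz probe set, outside these rules. The partner Tsc2 was named after its value was seen. Same-numbered arrays did not deviate together (correlation -0.0195), so no pairing was used. Alternatives were a stricter filter (60th percentile) or none, quantile normalization, a pseudocount or floor of 250, an intensity trend, gene means, a replicate block, and omission of single arrays, where the spread of the lone array is taken to equal that of the complete group.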

Additional observations from a re-analysis of the deposited data

How the results depend on the processing

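In every alternative run, 0 member probe sets passed the adjusted threshold. The count at an unadjusted p under 0.05, 4 as reported, was 8 with the filter at the 60th percentile (19.5%, against 9.9% of all probe sets). It was 7 with the pseudocount (11.3%, against 8.22%) and 13 with the intensity trend (21%, against 8.83%). As genes with probe sets averaged it was 2, and the share over all features is not given here. With the replicate block it was 4 (6.45%, against 7.5% of all probe sets), all lower (against 2.91% of all). Of these, 2 were among the reported 4: both Prkcz probe sets were lost, and Mapk9 (unadjusted p = 0.0482 by limma) and Map3k11 (0.04) were gained. The members' median of -0.081 was -0.11 with the 60th percentile filter, -0.063 with the pseudocount, and -0.088 to -0.057 with an array left out. The count of partner probe sets ran from 2 to 9 with an array left out. Of 32 named member probe sets, 25 kept their sign in all alternatives. Rps6kb2 was -0.0094 after quantile normalization, -0.0012 with the pseudocount and -0.52 to 0.54 with an array left out. The brighter Prkce probe set was 0.017 after quantile normalization and -0.22 to 0.21 with an array left out. With an array left out, Map3k4 ran from -0.34 to 0.11, Prkag1 from -0.41 to 0.097, Map4k4 from -0.26 to 0.0092 and Mapk10 from -0.25 to 0.0048. The higher Prkcz probe set was -0.00068 as the mean of the gene's probe sets, since that mean takes in the opposite probe set. Among family medians, MAP2K turned above 0 without control 1 (0.06) and without APPSw 2 (0.09), MAP4K below 0 with no filter (-0.14), the 60th percentile filter (-0.12) and without APPSw 1 (-0.11), the scaffold group above 0 with no filter (0.15) and without APPSw 1 (0.043), and the S6 kinases above 0 with no filter or the 60th percentile filter (0.0067) and without control 1 (0.003). The cause of the other sign changes was not tested. The smallest adjusted p of a member in any alternative was 0.423. Signal over background could not be read from these values, so dim members have no detection limit here.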

Other observations

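Promoter windows in the RefSeq table (250 bases before to 10 after a start) were found for 52 of the 63 genes, 85 windows in all. A CRE (TGACGTCA, the same on both strands) was in 3 of the 85 (3.53%, against 1.67% of all windows), belonging to Mapk10, Prkar1a and Prkcz. A GC box (GGGCGG or CCGCCC) was in 48 (56.5%, against 33.4%). These are matches of letters and not known binding sites. By the probe sets that passed the filter, Prkar1a had a log2 difference of -0.035, Mapk10 -0.12 and -0.018, and Prkcz -0.47 and 0.47.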
